A study of Mus musculus with 8 samples.

Results

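Bile duct organoids were compared with the bile duct epithelium they represent in culture, gene by gene, in mice of the C57BL/6 strain. The comparison took in 4 of the 8 libraries of the series, 1 from freshly isolated extrahepatic bile duct epithelium and 3 from organoids grown from the same kind of duct, which are hollow epithelial cultures in a gel matrix. A gene was included when its deposited FPKM, a read number scaled to transcript length and library size, was at least 1 in the epithelium or in the mean of the 3 organoids. Of 31228 genes in the table, 15227 met this condition. The other 4 libraries, 1 of pancreatic duct epithelium and 3 of pancreatic duct organoids, are used only for values side by side. The study set out to compare the ducts and their organoids with each other.

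For all groups the ducts were dissected, minced and digested with collagenase IV for 20 min. The epithelium then went directly into Trizol, with no sorting step given. The organoids were grown in Matrigel for 3 to 4 passages in D/F12 medium whose B27 supplement lacked vitamin A. The growth factors in it were EGF at 50 ng/mL, FGF10 and R-spondin-1 at 100 ng/mL each, and the BMP inhibitor Noggin at 25 ng/mL, and nicotinamide (10 mM) and N-acetylcysteine (1 mM) were added. Medium with 30% Wnt3A conditioned medium and 10 µM Y27632, a kinase inhibitor used to help single cells survive, was used at first and replaced by medium without both once luminal organoids had formed. No group carried an introduced mutation or a drug treatment beyond this medium. The labels give neither age nor sex, nor the number of animals or whether the 3 organoid libraries came from separate cultures, so the spread among them may be partly technical.

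Cholangiocytes, the epithelial cells of the bile duct, carry simple keratins, modify bile by moving chloride, bicarbonate and water, and arise under transcription factors such as Sox9 and Onecut1. The extrahepatic duct also has glands in its wall that can produce mucus. In the intact tissue few of these cells divide, while organoid medium supplies growth factors and Wnt amplifiers that keep ductal cells dividing.

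The values imply 12876470 reads or read pairs for the epithelium and between 17813445 and 19985789 for the organoids. Genes of the mitochondrial chromosome took 24.9% of summed FPKM in the epithelium and between 5.43% and 5.68% in the organoids. The share of the top 50 genes by level was 40.0% in the epithelium and between 18.5% and 19.6% in culture. Organoid 1 stood apart from the other two. Among the genes in the comparison, 1254 differed at least 2-fold between organoids 1 and 2 and 1270 between organoids 1 and 3, against 259 between organoids 2 and 3. Results that rest on organoid 1 are therefore given for each culture.

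Levels are given as scaled FPKM, that is FPKM after a trimmed-mean scaling between libraries. Differences are on the log2(scaled FPKM + 1) scale as organoid minus epithelium, with the SD over the 3 organoids, and they understate the change of weakly expressed genes. A gene is called higher or lower when the mean difference was at least 2-fold (1 on the log2 scale) and all 3 organoids lay on that side. With 1 epithelium library no p-value was computed, since an exact permutation test of 3 against 1 cannot go below p = 0.25, and the spread among epithelium preparations is unknown.

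Of the 15227 genes, 5918 (38.9%) were called, 1946 (12.8%) higher and 3972 (26.1%) lower in the organoids. Large differences were almost all downward. A difference of at least 3 on the log2 scale, 8-fold, was seen in 76 genes upward (0.499%) and 1081 downward (7.1%), and a 32-fold difference in 4 upward (0.0263%) and 305 downward (2%). The median over all genes was -0.07, and the median SD among the organoids was 0.17. In 5204 of the called genes (87.9%) the gap between the epithelium and the nearest organoid was wider than the range among the organoids. On FPKM as deposited, 2707 genes were called higher and 3526 lower, so that 56.6% of the called genes were lower instead of 67.1%. At least 1 FPKM was reached on both sides by 11101 genes, only in the epithelium by 3138 and only in the organoid mean by 988. Because a gene seen on a single side had to differ, these counts describe the libraries and carry no test. The genes nearest the inclusion limit were Xlr4b (1.00 deposited FPKM in the epithelium) and C2cd4c (organoid mean 1.00), just inside, and Nbea (organoid mean 0.9996) and Crybb3 (epithelium 0.999), just outside.

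**Figure D1:**
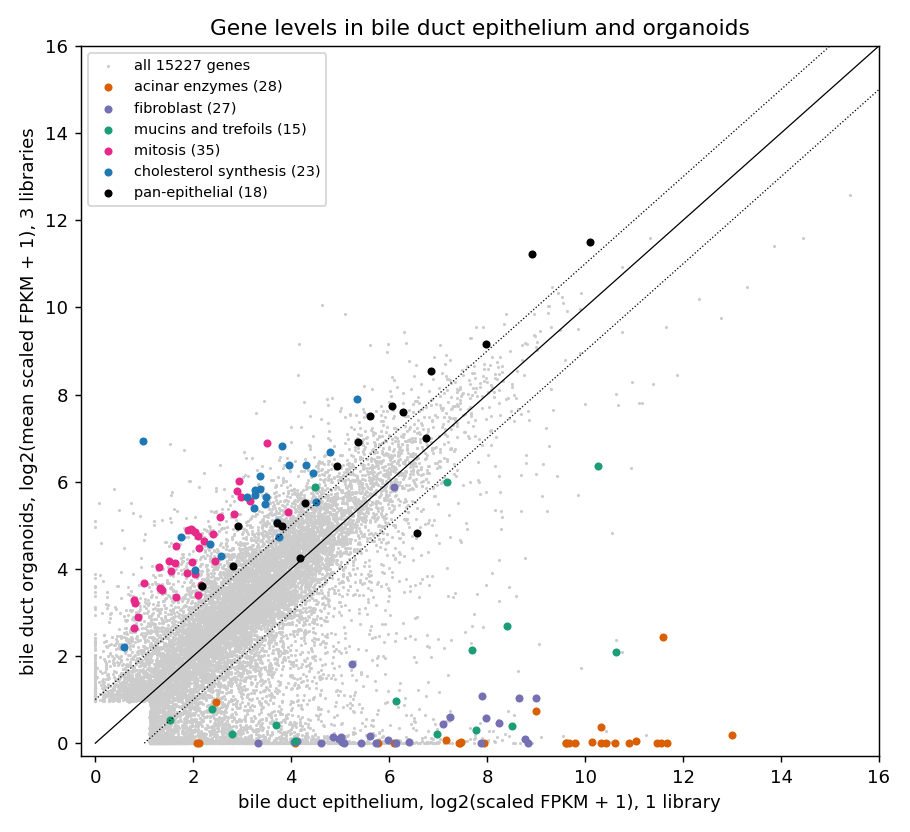
Scaled FPKM of the 15227 genes on log2(value + 1) axes, with the epithelium (1 library) on the horizontal axis and the mean of 3 organoid libraries on the vertical axis. The solid line marks equal levels and the dotted lines 2-fold differences. Mitosis and cholesterol synthesis genes lie above the diagonal, and acinar enzyme, fibroblast and most mucin genes lie along the lower edge.

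The labelled cell type was checked against marker lists. Most of the biliary markers were present on both sides, and the epithelium library also held RNA of many other cells. All 28 acinar genes, which encode the digestive enzymes of the exocrine pancreas and their regulators, were lower in the organoids. Their summed level was 35795 FPKM in the epithelium, 7.7% of the library, and between 3.44 and 10.0 FPKM in the organoids, and 18 of the 28 were at 0 in all 3 cultures. Ctrb1, chymotrypsinogen B, was the most abundant nuclear gene of the epithelium at 8210 FPKM and stood at 0.128, 0.107 and 0.172 in the organoids. Pnlip, pancreatic lipase, and Clps, colipase, had 3248 and 1900 FPKM in the epithelium and are listed at 0 in every organoid. No bound is given for these genes, since read numbers were not recovered for them. Cpa1, carboxypeptidase A, had 1556 FPKM in the epithelium and 0 in every organoid, which against a floor of 3 reads per library is at least 17793-fold lower. Genes of the trypsin family (Try4, Try5 and Prss2) are near copies of each other, so their separate values are uncertain.

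Other cells of the duct wall showed the same direction. Lower calls were made for 26 of 27 fibroblast genes, 18 of 18 smooth muscle genes, 22 of 22 endothelial genes and 29 of 30 leukocyte genes, against 26.1% of all genes. Summed fibroblast markers were 3792 FPKM in the epithelium and 175, 9.47 and 12.2 FPKM in organoids 1, 2 and 3. The high sum in organoid 1 came from Fn1, fibronectin, with 165 FPKM there against 3.09 and 3.99 in the other cultures. The defining fibroblast genes Dpt, Lum and Prrx1 were at 0 in every organoid. Summed smooth muscle markers were 3961 FPKM against 9.49 to 28.8, and Acta2, smooth muscle actin, had 1373 FPKM against 0.126 to 0.316. Endothelial markers summed to 1258 FPKM against 7.54 to 15.3, and Cldn5, Sox18, Emcn and Erg were at 0 in every organoid. Leukocyte markers summed to 2320 FPKM against 458, 220 and 160, of which Cd14, a receptor for bacterial lipopolysaccharide, gave 441, 214 and 155. Cd14 was the only leukocyte gene called higher, and C1qb, Tyrobp and Adgre1 were at 0 in every organoid. Tagln, Igha and other listed genes that overlap or resemble neighbouring genes carry uncertain values.

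Hepatocyte, intestinal and gastric genes were also present in the epithelium. Of 19 hepatocyte genes 18 were lower, with a sum of 542 FPKM against 25.7, 178 and 46.3, and Cyp2e1 fell from 65.4 FPKM to 0 in every organoid. Lower calls were also made for 20 of 23 genes of intestinal absorptive cells (1254 FPKM against 101 to 121) and for 18 of 18 genes of Paneth and goblet cells (3874 FPKM against 104 to 214). The intestinal transcription factor Cdx2 was at 5.57 FPKM in the epithelium and 6.91, 6.63 and 16.01 in the organoids, while Cdx1 went from 1.94 to 0. Villin, Vil1, a microvillus protein that cholangiocytes also make, was at 69.2 FPKM against 68.9, 93.6 and 71.3. All 13 endocrine genes were lower as well (146 FPKM against 0.845 to 1.96), Sst, somatostatin, falling from 34.4 to 0. In bulk RNA of this kind fewer cells of a type and less RNA per cell cannot be told apart. What these cells contribute to any other gene of the epithelium was not tested, and that applies to every lower call.

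**Figure D2:**
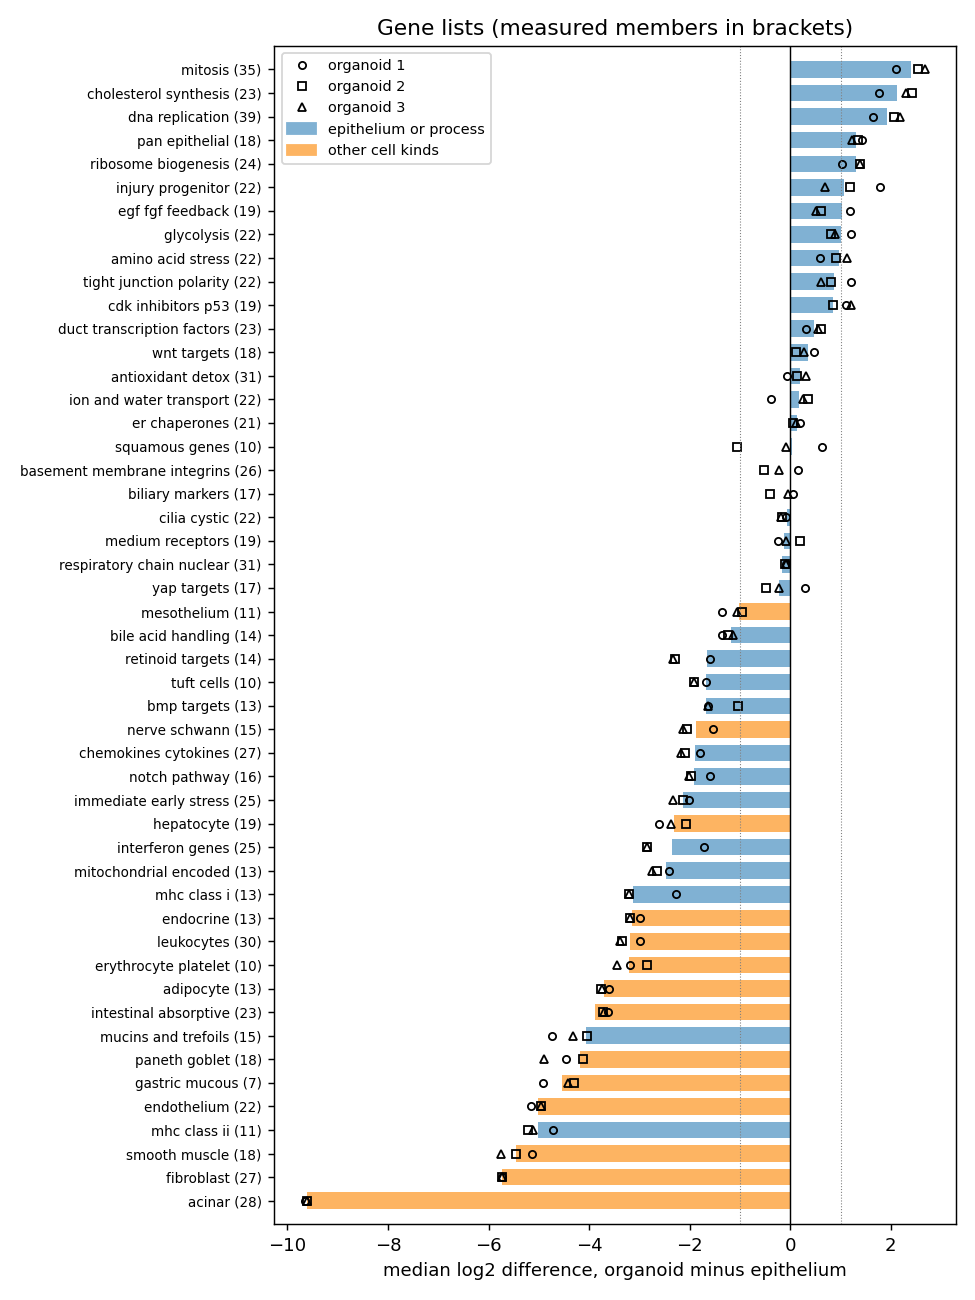
Median log2 difference, organoid minus epithelium, of the measured genes of each of the 49 lists, as bars, with the median in each organoid library as symbols. Dotted lines mark 2-fold. Mitosis, cholesterol synthesis and DNA replication lie at the top (2.40, 2.13 and 1.92), and the acinar list at the bottom (-9.61).

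Genes of epithelia in general were higher in the organoids. Of 18 pan-epithelial genes 14 were called higher and 1 lower, with a median difference of 1.32. Scaling the libraries to these same genes sets their median near 0 by construction and so says nothing of this rise. Krt8 and Krt18, the keratin pair of simple epithelia, were among the 10 most abundant nuclear genes of the organoids. Krt18 had 479 FPKM in the epithelium and 3217, 1871 and 2075 in organoids 1, 2 and 3, a difference of 2.27 ± 0.42 (SD, n = 3). Cdh1, E-cadherin, went from 115 to 482, 321 and 305 FPKM. Every organoid lay above the epithelium for both genes. Elf3, an epithelial transcription factor, was the lower call, with 94.5 FPKM against 26.2, 28.8 and 27.6. Scaling to the pan-epithelial genes shifted the differences, which decreased by a median of 1.07 on the log2 scale, with 265 genes called higher and 8435 lower. It also put the medians of 15 of the 49 lists on the other side of 0, and list counts under it are given for many of the lists. Counts of list members are to be read against the shares over all genes, 12.8% higher and 26.1% lower.

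The biliary markers divided. Of 17 measured, 4 were higher, 3 were lower and 10 were called neither, with a median of 0.0027. Krt7, a keratin of ducts, was at 26.0 FPKM in the epithelium and at 147, 152 and 182 in the organoids, a difference of 2.58 ± 0.16 (SD, n = 3). Sox9, a transcription factor of ductal and progenitor cells, went from 16.9 to 65.0, 36.8 and 42.7 FPKM, and Anxa4, an annexin, from 88.2 to 197, 211 and 167. For these genes all organoids lay above the epithelium, as the call rule requires. Epcam, an adhesion molecule, had 250 FPKM against 1001, 384 and 331, so that the size of its difference (1.01 ± 0.87) rests on organoid 1.

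Several ductal genes stayed within 2-fold in the mean. Spp1, osteopontin, had 420 FPKM in the epithelium and 643, 286 and 407 in the organoids, on either side of it. Cd24a had 262 FPKM against 238, 197 and 191. Krt19, the keratin most used to mark ducts, had 497 FPKM against 790, 978 and 997, a difference of 0.88 ± 0.19, short of 2-fold with all 3 cultures above the epithelium.

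Lower calls were made for Aqp1, Ggt1 and Prom1. Aqp1, a water channel of cholangiocytes and of capillary endothelium, went from 302 FPKM to 9.87, 29.6 and 13.2, a difference of -4.18 ± 0.77. Ggt1, the gamma-glutamyltransferase of the biliary brush border, went from 14.9 to 0.493, 0.991 and 1.37 FPKM. Prom1, a membrane protein of progenitor cells, went from 73.7 to 33.6, 21.0 and 20.4. Without organoid 1, 6 of the 17 markers were called lower, and under scaling to pan-epithelial genes 8 were lower and 1 higher.

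**Figure D3:**
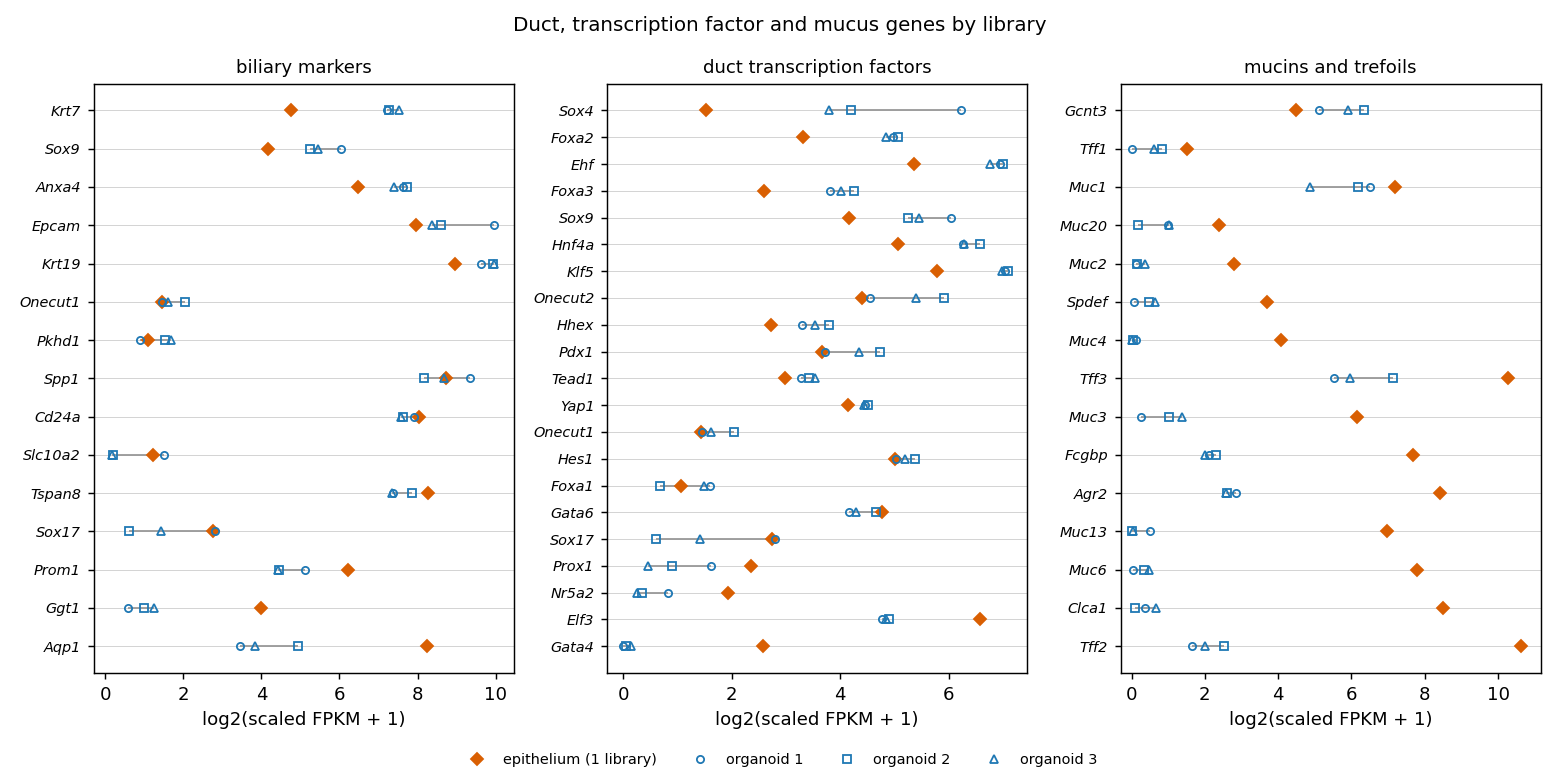
Level of biliary markers (15 of 17 shown), duct transcription factors (21 of 23) and the measured mucus genes in the epithelium (diamond) and in organoids 1 to 3 (open symbols), as log2(scaled FPKM + 1), ordered by the difference. The markers and factors lie on both sides of the epithelium, while the mucus genes, apart from Gcnt3, lie to its left.

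Among 23 transcription factors of ductal development 8 were called higher and 4 lower. Sox4, a factor linked with progenitor states, showed the widest rise, from 1.86 FPKM to 74.0, 17.4 and 12.9, with organoid 1 far above the others. The hepatobiliary factors Hnf4a (32.3 FPKM against 76.3, 95.0 and 76.9), Foxa2 (8.96 against 30.4, 32.4 and 27.7) and Foxa3 (5.04 against 13.0, 18.2 and 15.1) were higher in every organoid, with differences between 1.32 and 1.64. Ehf and Klf5, factors of simple epithelia, were higher too, Klf5 with 54.1 FPKM against 130, 135 and 125.

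Yap1, a co-activator that responds to cell contact and stiffness, stayed within 2-fold at 16.6 FPKM against 21.0, 21.8 and 20.7. Hes1, a Notch target, stayed within 2-fold at 31.2 against 31.7, 40.4 and 35.5. Lower calls were made for Gata4, Elf3, Nr5a2 and Prox1. Gata4, found in gastric, biliary and mesenchymal cells, went from 4.96 FPKM to 0, 0.0361 and 0.103. Sox17, a regulator of extrahepatic duct development, had 5.72 FPKM in the epithelium, 5.99 in organoid 1, 0.522 in organoid 2 and 1.68 in organoid 3, and was not called. Scaled to pan-epithelial genes, 1 factor was higher and 7 were lower.

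Transport genes of bile modification went both ways, with 6 of 22 higher and 4 lower. Ano1, a calcium-activated chloride channel, went from 26.2 FPKM to 124, 168 and 137, and Kcnn4, a potassium channel, from 11.45 to 56.8, 42.5 and 37.1. Slc12a2, which brings chloride into secretory cells, went from 38.2 to 164, 95.5 and 71.4 FPKM, and Car2, a carbonic anhydrase, from 57.9 to 234, 126 and 108. In these genes all cultures lay above the epithelium and organoid 1 was highest in 3 of the 4. Slc4a2, the chloride-bicarbonate exchanger of the apical membrane, stayed within 2-fold at 11.7 FPKM against 12.1, 16.4 and 15.0.

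Car4, Slc26a3 and Slc9a3, a carbonic anhydrase, a chloride exchanger and a sodium-proton exchanger that the intestine also uses, were each between 7.07 and 11.8 FPKM in the epithelium and at most 0.0768 FPKM in any organoid. Aqp5, a water channel of glands, had 26.1 FPKM against 15.2 in organoid 1 and 130 and 119 in organoids 2 and 3, and was not called. Under scaling to pan-epithelial genes 1 transport gene was higher and 11 were lower. When each organoid had to differ 2-fold, 2 were higher.

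Of 14 genes of bile acid handling, 9 were lower and 3 higher, and none was higher under scaling to pan-epithelial genes. Gpbar1, the membrane bile acid receptor, and Slc51b, a subunit of the basolateral bile acid exporter, went from 2.32 and 1.89 FPKM to 0 in every organoid. Slc51a, its partner subunit, went from 5.47 FPKM to 0.0350, 0 and 0. Nr1h4, the nuclear bile acid receptor FXR, had 10.0 FPKM in the epithelium, 0.535 in organoid 1 and 9.03 and 7.26 in organoids 2 and 3. Its lower call thus came from organoid 1. Abcc3, an exporter of conjugated bile acids, went up from 17.4 FPKM to 56.0, 105 and 64.9, and Fgfr4, the receptor of the ileal bile acid hormone, from 5.34 to 12.9, 28.0 and 33.8. Most of the lower genes were weak, and among genes with at least 10 FPKM on either side 2 were lower and 3 higher.

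Mucus genes were lower almost throughout. Of 15 mucins, trefoil factors and secretory factors, 14 were lower and 1 was higher, with a median difference of -4.06. Tff2, a trefoil factor of gastric and gland mucus, had 1578 FPKM in the epithelium and 2.11, 4.74 and 3.02 in the organoids, a difference of -8.57 ± 0.44 (SD, n = 3). Tff3, the trefoil factor of goblet cells, had 1231 FPKM against 45.0, 139 and 61.0. Muc6, the gland mucin, had 218 FPKM against 0.0239, 0.271 and 0.393. The organoids lay far below the epithelium for all 3 genes.

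Muc1, a membrane mucin of ductal surfaces, kept the highest mucin level in culture, with 143 FPKM against 89.8, 70.8 and 28.3. Spdef, a transcription factor of mucous cells, went from 11.95 FPKM to 0.0512, 0.386 and 0.552, and Agr2, a chaperone for mucins, from 339 to 6.25, 5.09 and 4.95. Gcnt3, an enzyme that builds mucin sugar chains, was the higher gene, from 21.3 FPKM to 33.7, 80.2 and 58.4. Gkn3, a gastrokine of gastric mucous cells, had 798 FPKM in the epithelium and 0 in every organoid, at least 4465-fold lower. Several of these genes are also on the lists of gastric, Paneth and goblet cells, and their source in the epithelium was not tested.

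Cell division genes were higher throughout. All 39 measured genes of DNA replication and all 35 of mitosis were called higher, against 12.8% of all genes, with medians of 1.92 and 2.40. Scaled to pan-epithelial genes, 12 and 23 of them were called and none was lower. Mki67, the proliferation antigen, had 6.89 FPKM in the epithelium and 23.6, 62.7 and 61.1 in the organoids. Cdc20, an activator of the anaphase-promoting complex, went from 10.4 FPKM to 68.0, 143 and 141, a difference of 3.30 ± 0.61 (SD, n = 3). Ccnb2, a mitotic cyclin, went from 6.59 to 50.4, 67.9 and 71.8 FPKM. Organoid 1 was the lowest culture for each of these genes, and the lists' medians in organoid 1 lay below those in organoids 2 and 3.

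In DNA replication, Uhrf1, which carries DNA methylation through replication, went from 4.55 FPKM to 43.1, 57.4 and 62.0, a difference of 3.30 ± 0.27. Mcm6, a subunit of the replicative helicase, went from 12.9 to 44.8, 64.8 and 70.3 FPKM, and Rrm2, a subunit of ribonucleotide reductase, from 7.34 to 43.2, 74.3 and 94.7. The smallest difference in the list was 1.07, for Rfc2, a clamp loader subunit (4.91 FPKM against 8.88, 12.6 and 13.2). Because every gene of both lists was called, the call rule already places all 3 organoids above the epithelium for each.

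Promoters of these genes are known for a few short elements: the CCAAT box, the cell cycle homology region TTTGAA of mitotic genes, and E2F sites of replication genes. The 250 bases before the RefSeq start (build GRCm38.p6) are shown for the most abundant genes holding such letters, on the gene's strand from 5′ to 3′. They show the arrangement of the elements in genes that were higher together. Capitals mark CCAAT and TTTGAA in the mitosis genes Cdc20 (chr4:118437344-118437593, minus strand) and Ccnb2 (chr9:70421555-70421804, minus strand). In the replication genes Mcm6 (chr1:128359706-128359955, minus strand) and Uhrf1 (chr17:56304063-56304312, plus strand), capitals mark the E2F letters TTTCCCGC, TTTCGCGC, TTTGGCGC or TTTGCCGC, or their reverse complements.
Cdc20: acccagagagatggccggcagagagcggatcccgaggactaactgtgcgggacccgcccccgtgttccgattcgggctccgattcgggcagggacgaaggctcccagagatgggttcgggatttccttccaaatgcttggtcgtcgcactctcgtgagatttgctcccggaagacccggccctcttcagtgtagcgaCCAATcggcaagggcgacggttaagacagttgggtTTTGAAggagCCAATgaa
Ccnb2: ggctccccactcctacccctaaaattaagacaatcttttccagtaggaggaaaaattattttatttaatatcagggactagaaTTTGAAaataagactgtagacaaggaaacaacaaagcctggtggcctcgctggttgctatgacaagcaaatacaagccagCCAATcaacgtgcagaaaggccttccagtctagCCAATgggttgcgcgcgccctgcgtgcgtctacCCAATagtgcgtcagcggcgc
Mcm6: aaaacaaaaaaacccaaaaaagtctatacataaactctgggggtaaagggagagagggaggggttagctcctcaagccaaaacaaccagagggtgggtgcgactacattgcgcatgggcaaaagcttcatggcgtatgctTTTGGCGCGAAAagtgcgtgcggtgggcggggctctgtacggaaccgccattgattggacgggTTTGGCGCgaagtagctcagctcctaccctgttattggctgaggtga
Uhrf1: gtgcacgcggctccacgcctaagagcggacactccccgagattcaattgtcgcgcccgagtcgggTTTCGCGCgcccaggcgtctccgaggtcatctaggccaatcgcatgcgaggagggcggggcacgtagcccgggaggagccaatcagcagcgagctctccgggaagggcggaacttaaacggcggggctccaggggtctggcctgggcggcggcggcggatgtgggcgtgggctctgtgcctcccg

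In Cdc20 the TTTGAA starts 18 bases before the start and lies between CCAAT boxes that begin 53 and 8 bases before it. Ccnb2 holds CCAAT boxes 87, 54 and 21 bases before its start, and its TTTGAA lies farther out, at 167. Mcm6 holds TTTGGCGC at 110 and 47 bases, the first of which overlaps a match on the other strand, GCGCGAAA at 106. Over the mitosis list, 30 of 35 genes had a promoter in the table. CCAAT was in 23 of these (76.7%, against 37.5% of 27025 genes) and TTTGAA in 10 (33.3% against 18.3%), both strands searched. An E2F match was in 8 of 31 replication genes (25.8% against 2.16%). These shares describe letters in a window and say nothing of binding.

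Cholesterol synthesis was the other pathway that was higher almost throughout. Of 23 genes 22 were called higher, and the remaining gene, Sc5d, a late desaturase, had 12.5 FPKM against 20.9, 29.5 and 26.2. Scaled to pan-epithelial genes 10 were called. Hmgcs1, which makes HMG-CoA, went from 39.7 FPKM to 178, 283 and 253, a difference of 2.53 ± 0.35 (SD, n = 3). Idi1, an isomerase early in the pathway, went from 7.54 to 29.9, 62.2 and 55.5 FPKM, and Cyp51, the lanosterol demethylase, from 14.4 to 59.1, 96.6 and 90.1. Organoid 1 was again the lowest culture for these genes, and in all of them the organoids lay above the epithelium. The regulator Srebf2 went from 26.7 to 91.0, 115 and 101 FPKM. The same table held a promoter for 15 of the 23 genes. CCAAT was in all 15, and the sterol element letters TCACNCCAC, searched after the values were seen, were in 1 (6.67%, against 1.22% of all genes), which was Hmgcs1. Its 250 bases (chr13:119690101-119690350, plus strand) are shown with that element, 137 bases before the start, in capitals.
Hmgcs1: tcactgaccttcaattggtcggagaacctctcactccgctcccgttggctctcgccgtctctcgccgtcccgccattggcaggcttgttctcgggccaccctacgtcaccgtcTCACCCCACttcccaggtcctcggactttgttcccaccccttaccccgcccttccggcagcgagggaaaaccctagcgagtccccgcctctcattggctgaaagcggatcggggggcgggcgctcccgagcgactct

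Of 22 genes on the amino acid stress list 11 were higher and 4 lower, with a median of 0.98. Scaled to pan-epithelial genes, 4 were higher and 8 lower, and the median was -0.22. Phgdh, the first enzyme of serine synthesis, went from 10.4 FPKM to 83.0, 149 and 134, and Psat1, the second, from 4.51 to 26.7, 64.1 and 80.9. Slc7a11, the cystine carrier, went from 0.186 to 6.26, 11.02 and 10.2 FPKM. The stress factors Atf3 and Ddit3 were lower, Atf3 with 187 FPKM against 10.6, 2.07 and 1.94, while Atf4, their regulator, stayed within 2-fold at 138 against 101, 121 and 127.

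Of 22 genes of glycolysis 11 were higher and 4 lower, with a median of 1.00 that became -0.39 when scaled to pan-epithelial genes, where 1 was higher and 8 lower. Pkm, pyruvate kinase, went from 80.5 FPKM to 508, 593 and 640, and Pgk1 from 83.9 to 424, 405 and 477. Nucleolar and ribosome assembly genes were higher in 16 of 24 and lower in 2, for example Ncl, nucleolin, with 33.4 FPKM against 86.7, 126 and 142, and none was higher under scaling to pan-epithelial genes. Of 31 nuclear genes of the respiratory chain 1 was higher and 1 lower, with a median of -0.16, and 25 were lower under scaling to pan-epithelial genes, with a median of -1.54. The mitochondrial genome's own transcripts were lower in 12 of 13, with mt-Co1, a subunit of cytochrome oxidase, at 43532 FPKM against 6210, 5943 and 6101.

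The culture medium supplied EGF, R-spondin-1, Noggin and FGF10, and the receptors for these were examined first. Of 19 receptor genes 2 were higher, a share near the 12.8% of all genes, and 7 lower. Scaled to pan-epithelial genes none was higher and 12 were lower. Egfr, the EGF receptor, was higher, with 7.27 FPKM against 35.5, 13.2 and 10.4, most of all in organoid 1. Lrp5, a Wnt co-receptor, was higher with 17.3 FPKM against 37.6, 66.6 and 53.7. Lgr4, a receptor for R-spondins, stayed within 2-fold at 17.1 FPKM against 14.4, 26.4 and 24.0, and Lgr5, its relative on stem cells, had 0.626 FPKM against 1.26, 2.27 and 1.18. Fgfr2, the receptor for FGF10, stayed within 2-fold at 11.1 FPKM against 5.87, 16.7 and 10.4. Fgfr1, the FGF receptor of mesenchymal cells, went from 18.6 to between 0.0255 and 0.0851 FPKM.

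Feedback genes and ligands of EGF and FGF signalling were higher in 10 of 19 and lower in 2, with a median of 1.03. Without organoid 1, 6 were called higher, and under scaling to pan-epithelial genes 3 were higher, 7 were lower and the median was -0.24. Etv4, a transcription factor induced by these receptors, went from 1.09 FPKM to 13.8, 8.91 and 11.7. Dusp4, a phosphatase that restrains ERK, went from 4.27 to 40.3, 21.3 and 24.7 FPKM. The ligands Areg (19.3 FPKM against 101, 48.3 and 78.6) and Ereg (2.38 against 13.6, 12.6 and 18.3) were higher in every culture. Dusp6, an ERK phosphatase, stayed within 2-fold at 45.0 FPKM against 50.1, 39.3 and 34.5, and Spry1 was lower at 14.0 against 5.67, 2.94 and 4.38.

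Of 18 Wnt target genes 4 were higher and 5 lower, the latter a share near the 26.1% of all genes, and under scaling to pan-epithelial genes 2 were higher and 5 lower. Ccnd1, cyclin D1, went from 23.3 FPKM to 158, 162 and 194, and Myc from 11 to 60.6, 66.2 and 68.1. Rnf43, a ligase that removes Wnt receptors, went from 6.60 to 19.9, 22.5 and 21.2 FPKM. Axin2, the most general Wnt target, stayed within 2-fold at 4.52 FPKM against 5.65, 6.43 and 6.53. Smoc2, Nkd1, Apcdd1 and Tnfrsf19 went from between 5.59 and 44.4 FPKM to at most 0.0899 FPKM in any organoid. Fibroblasts also express several of these 4 genes.

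Target genes of BMP signalling, which Noggin blocks, were lower in 8 of 13 and higher in none, with a median of -1.67. Id3, an inhibitor of helix-loop-helix factors, went from 93.9 FPKM to 8.85, 45.1 and 29.7, and Id4 from 13.7 to 0.101, 1.05 and 0.273. Id1, the usual readout gene, was not called, with 173 FPKM against 110 in organoid 1 and 346 and 246 in organoids 2 and 3. Smad7 stayed within 2-fold at 10.0 FPKM against 14.1, 10.5 and 8.62. Among genes with at least 10 FPKM on either side 3 were lower.

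Notch pathway genes were lower in 10 of 16 and higher in 1. Those that also mark vessels or mural cells, Dll4, Heyl, Notch3 and Hey2, went from between 3.50 and 15.0 FPKM to at most 1.55. Notch2, the receptor needed for bile duct formation, stayed within 2-fold at 8.83 FPKM against 11.5, 11.5 and 10.7, as did its ligand Jag1 at 14.6 against 22.8, 16.7 and 14.9. Jag2, another ligand, went up from 4.78 FPKM to 15.6, 39.7 and 38.9. Among genes with at least 10 FPKM on either side the median of the list was 0.19.

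Retinoid genes were lower in 10 of 14 and higher in none. The medium held B27 without vitamin A, the precursor of retinoic acid. No culture with vitamin A was sequenced, and its part in these values was not tested. Aldh1a1, which makes retinoic acid, went from 93.1 FPKM to 0.709, 4.21 and 3.04. Dhrs3, an enzyme induced by retinoic acid, went from 24.0 to 0.708, 0.128 and 0.172 FPKM, and Rarb, a receptor that is itself a target, from 3.15 to 0.148, 0 and 0. Aldh1a3 was 19.0 FPKM in organoid 1 and 0.519 and 0.469 in the others, against 7.87 in the epithelium. Of 17 targets of the co-activator YAP 6 were higher and 5 lower, and 2 and 10 under scaling to pan-epithelial genes. Ctgf went from 150 FPKM to 37.6, 11.5 and 27.0, while Ajuba went from 5.91 to 57.8, 44.5 and 47.6 and Ankrd1 from 34.4 to 254, 66.3 and 85.3.

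**Figure D4:**
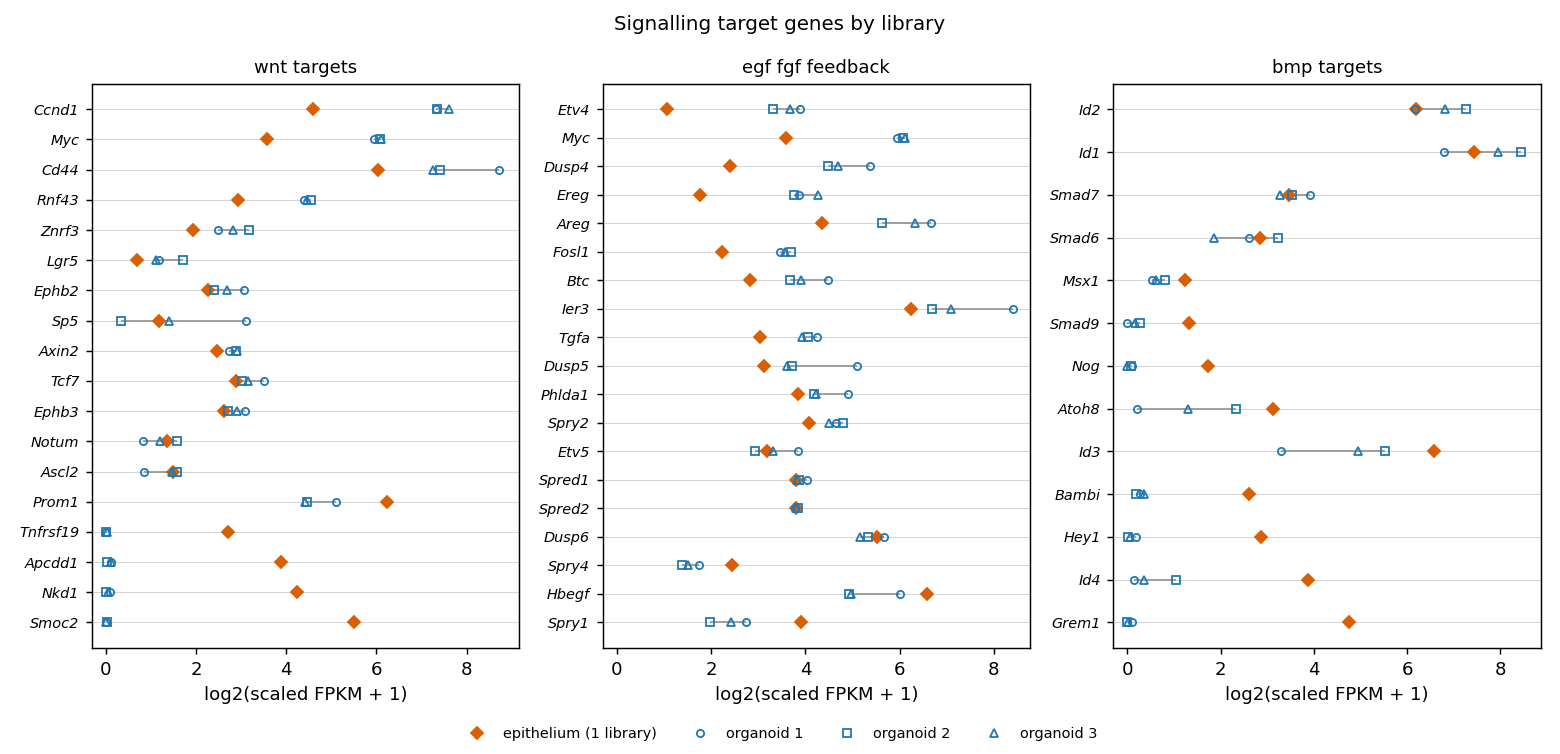
Levels of Wnt target, EGF and FGF feedback, and BMP target genes in the epithelium (diamond) and organoids 1 to 3 (open symbols), as log2(scaled FPKM + 1), ordered by the difference. Ccnd1, Myc and Etv4 lie to the right of the epithelium in all cultures, Axin2 and Dusp6 lie near it, and Id3 and Id4 lie to its left.

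The genes with the largest rise included some that are linked with fetal or stratified epithelium, and injury genes were examined as a list. Of 22 injury and progenitor genes 11 were higher and 4 lower, with a median of 1.07 that became -0.22 when scaled to pan-epithelial genes, where 3 were higher and 7 lower. Msln (chr17:25748614-25754327), mesothelin, a surface protein of mesothelium and some ductal cells, went from 16.8 FPKM to 346, 589 and 790, a difference of 4.94 ± 0.60 (SD, n = 3). Of 11 mesothelial markers 2 were higher, Msln and Krt7, 6 were lower and 3 were called neither. The 6 lower genes (Upk3b, Wt1, Lrrn4, Nkain4, Gpm6a and Igfbp6) were at most 0.493 FPKM in any organoid. Anxa8 went from 14.1 to 81.4, 107 and 87.5 FPKM. Ly6a, an injury gene in the gut, was lower at 410 FPKM against 51.7, 215 and 298, a call that came from organoid 1. Krt20 was lower at 204 against 8.17, 4.61 and 3.53.

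The widest rise among the genes named was that of Lor (chr3:92080271-92083142), loricrin, a protein of the skin's cornified layer, with 1 read in the epithelium (0.0502 FPKM) and 55.7, 38.1 and 39.6 FPKM in the organoids. Cldn6 (chr17:23679365-23682446), a claudin of embryonic epithelium, went from 0.296 FPKM to 119, 17.9 and 31.9, so that its difference of 5.02 became 4.27 without organoid 1. Squamous genes as a list divided, with Pkp1, a desmosome protein, and Krt6a higher, Sprr1a and Krt14 lower, and 3 of 10 in each direction. On FPKM as deposited 3 were higher and 1 was lower, and under scaling to pan-epithelial genes 2 were higher and 5 lower. Pkp1 went from 1.30 FPKM to 43.4, 23.3 and 26.3. Prss22, a serine protease, went from 0.405 to 69.1, 28.8 and 21.3 FPKM, and Fabp5, a fatty acid binding protein, from 9.86 to 125, 312 and 254. Slc25a48, a mitochondrial carrier, went from 0.661 to 16.1, 37.9 and 80.3 FPKM, with organoid 3 highest. Epop went from 0.463 to 13.2, 41.1 and 31.5, and Erdr1 from 0.715 to 9.42, 60.9 and 43.1.

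Cdkn2a (chr4:89274471-89294653), which encodes the cell cycle inhibitors p16 and p19Arf, had 1 read in the epithelium (0.0762 FPKM) and 24.8, 18.3 and 26.4 FPKM in the organoids. Cell cycle inhibitors and targets of p53 as a list were higher in 9 of 19 and lower in 2, and under scaling to pan-epithelial genes 1 was higher and 7 were lower. Cdkn2b, the neighbour of Cdkn2a, went from 9.55 FPKM to 61.8, 27.7 and 25.2. The p53 targets Bax (10.3 FPKM against 38.3, 54.1 and 65.4), Ccng1 (42.8 against 111, 104 and 135) and Phlda3 (22.4 against 54.5, 50.0 and 62.2) were higher in every culture. Cdkn1a, p21, the best known p53 target, was not called, with 44.6 FPKM against 75.4, 48.5 and 70.2.

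Antigen presentation and interferon genes were lower. All 11 MHC class II genes were lower, with a summed level of 1812 FPKM against 1.04 to 2.68. Cd74, the invariant chain, went from 752 FPKM to 0.318, 0 and 0.0357. Leukocytes make these genes, and their listed markers were at or near 0 in the organoids with the exception of Cd14 and a few myeloid genes. The part of leukocytes in the lower class II values was not tested. Of 13 MHC class I genes, which most cells make, 12 were lower. H2-K1 had 558 FPKM in the epithelium and 80.7, 32.9 and 35.4 in the organoids. H2-D1 had 587 FPKM against 209, 92.2 and 146. Psmb8, a subunit of the immunoproteasome, went from 17.9 to 2.58, 0.154 and 0.202. MHC genes are near copies of each other, so their separate levels are uncertain.

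All 25 interferon-induced genes were lower, against 26.1% of all genes, with a median of -2.34 and a sum of 680 FPKM against 166, 56.1 and 61.6. Gbp2, a guanylate binding protein, went from 96.1 FPKM to 2.07, 0.0747 and 0.0600, and Isg15 from 31.2 to 8.82, 0.311 and 0.400. Igtp, an interferon-induced GTPase, went from 85.6 to 1.44, 0.116 and 0.174 FPKM. Organoid 1 lay between the epithelium and the other cultures in each of these genes.

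Chemokines and cytokines were lower in 16 of 27 and higher in 3, and several of them were far higher in organoid 1 than in the other cultures. Cxcl5, which attracts neutrophils, went from 27.4 FPKM to 542, 112 and 64.9, and Ccl20 from 1.13 to 21.5, 7.01 and 4.53. Cxcl1 went from 8.19 to 83.3, 13.0 and 12.4. Ccl2, which attracts monocytes, had 13.4 FPKM in the epithelium, 241 in organoid 1 and 2.39 and 5.88 in organoids 2 and 3, the widest range on the log2 scale of any gene with an organoid mean of at least 10 FPKM. Its mean difference of 0.30 became -1.58 without organoid 1. Cxcl12, Cxcl13 and Ccl21a, which stromal cells make, went from between 16.4 and 26.1 FPKM to at most 0.0487.

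Organoid 1 also stood out in Lcn2, the bacteriostatic lipocalin, with 529 FPKM against 13.2 and 11.8 in the other cultures and 36.0 in the epithelium. Csf3, a growth factor for neutrophils, had 92.3 FPKM in organoid 1, 2.39 and 4.49 in organoids 2 and 3 and 0 in the epithelium. Rgs16, a regulator of G proteins, had 77.1 FPKM against 0.663 and 1.21, and 3.47 in the epithelium. Clu, clusterin, had 2619 FPKM against 663 and 597, and 972 in the epithelium. Rps2-ps13, a pseudogene of a ribosomal protein and therefore uncertain, had 1672 and 1072 FPKM in organoids 1 and 2 and 24.3 in organoid 3. Without organoid 1 the means of Lcn2, Rgs16 and Clu fell below the epithelium, with differences of -1.46, -1.22 and -0.63 in place of 0.31, 0.56 and 0.06. The cause of the difference between the cultures was not tested.

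**Figure D5:**
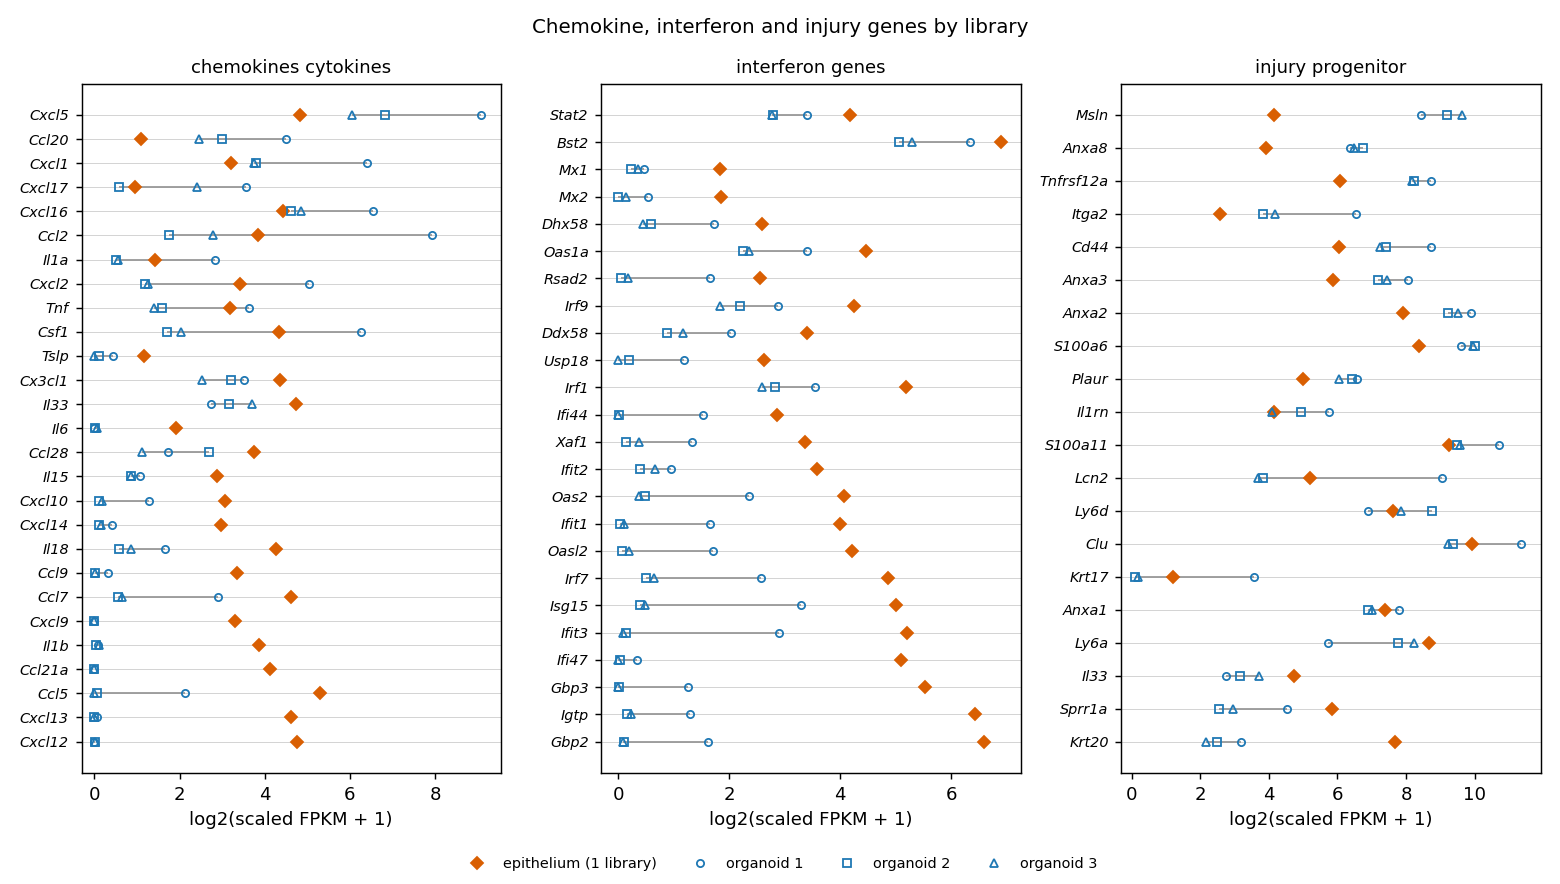
Levels of chemokine, interferon-induced (24 of 25 shown) and injury genes (20 of 22) in the epithelium (diamond) and organoids 1 to 3 (open symbols; the bar spans their range), as log2(scaled FPKM + 1). Organoid 1 is the highest culture in Ccl2 (241 FPKM), Cxcl5 (542 FPKM) and Lcn2 (529 FPKM), and the interferon genes lie to the left of the epithelium in all 3 cultures.

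Junction and polarity genes were higher in 9 of 22 and lower in 3, and under scaling to pan-epithelial genes 1 was higher and 4 were lower. Cldn7 went from 76.7 FPKM to 231, 169 and 174, and Crb3, a Crumbs polarity protein, from 18.5 to 45.4, 46.8 and 42.6. Cldn4 had 451 FPKM in organoid 1 and 42.4 and 50.9 in the others, against 47.5 in the epithelium, and was not called. Cldn8 and Cldn15 were lower, Cldn8 with 26.1 FPKM against 1.74, 2.91 and 1.18.

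Genes of the basement membrane and its receptors were higher in 6 of 26 and lower in 11, and under scaling to pan-epithelial genes higher in 1 and lower in 15. The chains of epithelial laminin, Lamb3 (11.4 FPKM against 105, 44.8 and 43.3) and Lama5 (20.3 against 59.4, 53.6 and 58.7), were higher. So were the integrins Itga3 (20.8 FPKM against 187, 98.5 and 109) and Itga2 (4.98 against 91.6, 13.1 and 17.3). Laminin chains that vessels and muscle also make, Lamb1, Lama4 and Lamb2, were lower, Lamb2 with 57.5 FPKM against 18.1, 15.9 and 14.1. Genes of primary cilia, which cholangiocytes use to sense bile flow, were mostly called neither, with 1 of 22 higher and 3 lower, and 9 lower under scaling to pan-epithelial genes.

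Immediate-early and heat shock genes, a list of genes known to rise when tissue is dissociated, were lower in 20 of 25 and higher in none. The epithelium was lysed directly after mincing and digestion, and the part of that handling in these values was not tested. Fos had 927 FPKM in the epithelium and 73.7, 44.6 and 33.6 in the organoids, Fosb 216 against 0.224, 0.0827 and 0.105, and Jun 348 against 23.6, 4.64 and 4.58. The organoids lay below the epithelium for all of these. Of 31 antioxidant and detoxification genes 6 were higher and 8 lower, the latter a share near that of all genes, and under scaling to pan-epithelial genes none was higher and 17 were lower. Gsta4 had 142 FPKM against 581, 403 and 456, Gclc, which limits glutathione synthesis, 23.7 against 36.4, 96.9 and 98.9, and Gpx3 221 against 20.8, 4.20 and 4.08.

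In the pancreatic duct the same call rule gave 6043 of 14984 genes (40.3%), 2275 higher (15.2%) and 3768 lower (25.1%). No sample is shared between these comparisons, each has 1 epithelium library, and the difference between them was not tested. The lists gave 35 of 35 mitosis and 23 of 23 cholesterol synthesis genes higher there, and 25 of 25 interferon and 28 of 28 acinar genes lower. The biliary marker list gave 11 of 17 higher and 3 lower in the pancreatic duct, against 4 and 3 here, and its pan-epithelial genes had a median of 2.98 against 1.32. Mucus genes gave 2 higher and 5 lower of the same 15 in the pancreatic duct, against 1 and 14 here. All these list counts cover the genes that entered the bile duct comparison. Mucus genes weak in pancreatic duct epithelium, such as Agr2 at 0.997 FPKM, could not be called lower there, so part of this contrast is built in. Tff3 was at 6.14 FPKM in pancreatic duct epithelium and 54.6 ± 46.1 (SD, n = 3) in its organoids, beside 1231 and 81.8 ± 50.5 in the bile duct. The organoid levels lay closer together than those of the epithelia. Tff3 was picked for its opposed changes in the 2 ducts, so this follows in part from that choice.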

How the data were processed

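Polyadenylated RNA was captured on poly-T beads, and the library kit was NEBNext Ultra, per the labels' protocols. The authors deposited 1 table of FPKM for 31228 genes with a column per library. The unit was read from the values. The submitters' processing notes name Bowtie2 2.2.3, HISAT2 2.1.0, TopHat2 and HTSeq 0.6.0 without their roles. The annotation, filters and use of strand are not given in the sources used here. Gene coordinates are those of the table, in GRCm38. Deposited FPKM times exon length (GENCODE M21) gave whole reads within 0.05 of a read in all libraries for 28310 genes (90.7%), from which read numbers and depth were taken, and floors of 3 reads cover counting error only.

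FPKM were scaled over all 8 libraries by a trimmed mean of log ratios (30% of ratios and 5% of levels trimmed on each side) over 16541 genes with at least 1 FPKM in any library. Calls used a pseudocount of 1 and the 2-fold rule. The procedure was tested on simulated data. Calendar dates stand in place of the names of 26 genes. All sample columns were used, leaving 0 aside.

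The members and the 49 gene lists were chosen with earlier results of these data known. Named genes were the 12 protein-coding genes with the largest rise and with the largest fall (at least 10 FPKM on the higher side), the 12 largest falls outside the lists of other cells, the 10 most abundant genes of each side, the 6 with the widest organoid range, the 5 in each direction with the widest opposed change in the pancreatic duct, and list members where a list is described. Some genes that met this rule are not reported here. RefSeq promoters were matched by symbol, and motifs were searched in 250 bases. Tools were Python 3.11.15, pandas 2.3.3, numpy 2.4.6 and matplotlib 3.10.9.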

Additional observations from a re-analysis of the deposited data

Results flagged for a closer look

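These genes lay on opposite sides of their epithelium in the bile duct and the pancreatic duct, in every organoid of each. With 1 library for each epithelium, none of the differences between ducts was tested. The search took in protein-coding genes without a predicted-gene name that had at least 10 FPKM in at least 1 group. Of these, 73 were above the epithelium here and below it in the pancreatic duct, and 167 were the other way round. The number of genes searched was not counted, so no share is given.

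Among the genes above the epithelium here and below it in the pancreatic duct, Sorbs2, an adaptor of the actin skeleton, had the widest gap between the differences, 1.91 on the log2 scale (1.00 here and -0.90 there). The gap was 1.78 for Fads1, a fatty acid desaturase (0.76 and -1.02), 1.59 for Wtip (0.14 and -1.45), 1.46 for Uba2 (0.61 and -0.85) and 1.44 for Fkbp11 (0.82 and -0.62). Sorbs2 alone of these passed the 2-fold rule here, and Fads1 and Wtip passed it in the pancreatic duct. Sorbs2 had 5.68 FPKM in the epithelium here and 27.4 in that of the pancreatic duct, with organoid means of 12.5 and 14.2.

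Among the genes below the epithelium here and above it in the pancreatic duct, the 5 widest gaps were -6.72 for Tff3, -6.66 for Clca3b, -6.43 for Guca2a, -6.31 for Spink4 and -6.24 for Agr2. All 5 passed the 2-fold rule here, while in the pancreatic duct Guca2a (0.89) and Agr2 (0.51) did not. Spink4 had 597 FPKM in the epithelium here and 12.5 in that of the pancreas, with organoid means of 39.1 and 61.9. Of the listed genes called in opposite directions, the gap was -2.86 for Prom1, -6.09 for Sprr1a, -3.81 for Krt14, -5.35 for Gsta1 and -4.37 for Mmp7. Gsta1, a glutathione transferase, had 37.3 FPKM in the epithelium here and 0 in that of the pancreas.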

How the results depend on the processing

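Scaling to pan-epithelial genes gave 265 genes higher and 8435 lower, and put 15 of 49 list medians on the other side of 0, of which 4 had been at least 1 (pan-epithelial -0.033, by construction, EGF and FGF feedback -0.24, injury and progenitor -0.22, glycolysis -0.39). It turned the difference of Krt8 (-0.052), Eef2 (-0.26) and Sorbs2 (-0.23). A minimum of 10 FPKM gave 2780 called genes, 1448 of them lower, and put 7 list medians on the other side of 0, among them bile acid handling (1.78), Notch (0.19), tuft cell (0.12) and mesothelial genes (0.88), since fewer genes enter. FPKM as deposited gave 6233 calls and raised the median of all genes by 0.22. The trimmed mean over all genes, chosen after seeing the data, raised it by 0.10. Leaving out each organoid in turn gave 5823 to 6270 calls, 1899 to 2139 higher and 3924 to 4131 lower. Asking for 2-fold in each organoid left 4673, a pseudocount of 0.1 gave 6947 and recovered reads scaled to depth 5405. The last number covers only the genes whose reads were recovered, so fewer genes enter. No alternative called a gene in the opposite direction to that reported. Such a reversal needs a move across both 2-fold limits, while the widest median shift was -1.065. The settings could therefore hardly give one, and its absence is no measure of stability. Of 735 list medians over the 15 alternatives 533 moved less than the 3 organoids spread, and 49 had the other sign, 8 of which had been at least 1 in size. The 533 include 49 medians for each of 2 alternatives, 2-fold in the mean only and 2-fold in each organoid. These change only the call, so their medians could not move. No paired analysis was possible because the epithelium is 1 library. That single library, and the part of other cells in it, limits every difference, and depth limits genes at a few reads.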

Other observations

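Processed pseudogenes, copies of mature transcripts that resemble their parent genes, went against the general direction. Of 797 included, 215 were called higher and 65 lower in the organoids, with a median difference of 0.52, while of 13103 protein-coding genes 1574 were higher and 3358 lower. Gm6166, a pseudogene with 23.8 FPKM in the epithelium and 327, 1815 and 1041 in organoids 1, 2 and 3, was among the 10 most abundant nuclear genes of the organoids. Antisense genes were higher in 13 and lower in 59 of 182.

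Tuft cell genes, of the chemosensory cells found in the extrahepatic duct, were lower in 8 of 10. Gnat3, the taste G protein, went from 1.90 FPKM to 0 in every organoid, and Trpm5, the taste channel, from 2.83 FPKM to 0.0788, 0.125 and 0.0866. Ptgs1, which these cells share with others, was called neither, with 21.3 FPKM against 6.79 in organoid 1 and 47.2 and 36.8 in organoids 2 and 3. In the pancreatic duct 4 of the 10 were lower, but these 10 are the genes that entered the bile duct comparison. Any that were weak in pancreatic duct epithelium could not be called lower there.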
